A study of Mus musculus with 3 samples.

Results

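Resting regulatory T cells (Tregs) of mouse lymph node are described here, as the 1396 cells of 1 lymph node library that were richest in transcripts of Satb1, Igfbp4, Tcf7, Lef1 and Ccr7. A lymph node barcode was kept with at least 500 UMIs (unique molecular identifiers, each standing for 1 captured transcript), at least 300 genes, at most 10% mitochondrial UMIs and at least 2 UMIs over Cd3d, Cd3e, Cd3g and Cd4. The score of a cell was the summed UMIs of the 5 genes divided by its total UMIs. Cells with a score above 0 and at or above the 85th percentile were taken as resting Tregs. They made up 1396 of 9305 kept lymph node cells (15%) and of 10414 kept cells in the whole series, and the other 7909 lymph node cells were the comparison.

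The study profiled sorted Tregs of adult mouse lymph node, epidermis and dermis by droplet single-cell RNA sequencing, with 1 library per tissue. All libraries came from the strain FOXP3-EGFP (C.Cg-Foxp3tm2Tch/J), in which cells that express Foxp3 carry a green fluorescent protein, and the labels name no treatment. Per the labels' protocols, cells positive for GFP, CD4, CD3 and CD45 were sorted, lymph node was mashed, and the skin layers were separated with an enzyme. The resting Tregs and the other lymph node cells therefore shared tissue, strain, sort and library, while how many animals were pooled, and their age beyond adult, is not stated in the labels.

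Tregs keep other immune cells in check, and the transcription factor Foxp3 defines the lineage. In lymph node they include resting (central) cells, which circulate through lymphoid organs like naive T cells and enter them with homing receptors such as CCR7, and effector cells, which have seen antigen and carry receptors for entry into tissue. Tcf7 and Lef1 encode related transcription factors of naive T cells. Satb1 encodes a chromatin organiser that helps set up the Treg programme in the thymus, Igfbp4 a secreted protein that binds insulin-like growth factors, and Ccr7 the chemokine receptor that guides cells into the T cell zone.

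The resting Tregs held 4383129 UMIs and the other cells 28307001. The median resting Treg had 2897.5 UMIs and 1114 genes, against 3051 UMIs and 1166 genes in the other cells. The deepest cells lay outside the resting group, with 95th percentiles of 5200 UMIs in resting Tregs and 7325.8 UMIs in the other cells. Between libraries, epidermis and dermis shared 43 cell barcodes, dermis and lymph node shared 1, and epidermis and lymph node shared none of theirs. Without the shared barcodes the lymph node comparison again held 1396 resting Tregs and the same counts of higher and lower genes. In epidermis 236 of 271 kept cells remained without them. Of the skin values, the counts of lower genes seen again and the effector medians are given both ways, and the rest with all kept cells only.

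Cells are not replicates, so with 1 library no test was run. UMIs of each gene were summed over a group and given as CPM, counts scaled to a common total. A fold is the ratio of resting Tregs to the other cells, and "fold lower" is its inverse. The 95% intervals are exact and cover counting error only. Genes count as higher or lower from 1.5-fold on, provided that the group with more of them had at least 50 CPM. A gene of a list counts as measured at 10 CPM or more in either group, a limit that favours genes that differ.

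The 5 score genes chose the cells, so their values are a description, as are the ratios of other genes between the groups so chosen. Ccr7 (chromosome 11, 99144196 to 99155077, mm10) stood at 590 CPM in resting Tregs and 167 CPM in the other cells. Lef1 (chromosome 3, 131110471 to 131224356) stood at 422 CPM in resting Tregs and 145 CPM in the other cells. Igfbp4 (chromosome 11, 99041244 to 99054392) had the largest ratio of the 5, at 400 CPM (381 to 419) in resting Tregs and 53.3 CPM (50.7 to 56.1) in the other cells. Satb1 (chromosome 17, 51736187 to 51833290) stood at 341 CPM in resting Tregs and 91.4 CPM in the other cells, and Tcf7 (chromosome 11, 52252371 to 52283014) at 199 CPM in resting Tregs and 81.9 CPM in the other cells.

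The limit was set as a percentile, so cells lie close to it on both sides whether or not cell types are separate. With the summed score genes of a cell scaled like CPM, the limit lay at 1401.62, the lowest resting Treg at 1401.74 and the highest other cell at 1401.54. Within 10% of the limit there were 314 resting Tregs above it and 393 other cells below it. A resting Treg carried 2 to 23 score UMIs with a median of 5, against a median of 2 in the other cells, of which 1721 (21.8%) had none. All 5 genes were seen together in 63 resting Tregs (4.51%) and in 31 other cells (0.392%), whereas 566 resting Tregs (40.5%) showed 3 of them.

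The resting Tregs were set apart by genes that they had less of. Of 2425 genes outside the score with at least 50 CPM, 61 were lower in resting Tregs (2.52% of those measured) and 3 were higher (0.124%), together 2.64%. With TMM scaling, a normalization by trimmed mean, 48 were lower and 16 higher, and with median-of-ratios scaling 46 were lower and 16 higher. With mitochondrial and ribosomal protein genes left out of the totals, 88 were lower and 17 higher. In every alternative choice of cells, score and scale that was run, 25 in number, all of the 61 stayed below a ratio of 1 and all of the 3 stayed above it. Limits of 1000 UMIs and 500 genes, and removal of Scrublet doublets, took out no cell and could change nothing. Past 1.5-fold there remained 35 of the 61 with the score taken on thinned cells, 42 without Satb1 in the score and 45 without Igfbp4. Most shifts were small: at 2-fold, 20 genes were lower and 1 was higher, and at 3-fold 9 were lower and 1 was higher.

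**Figure D1:**
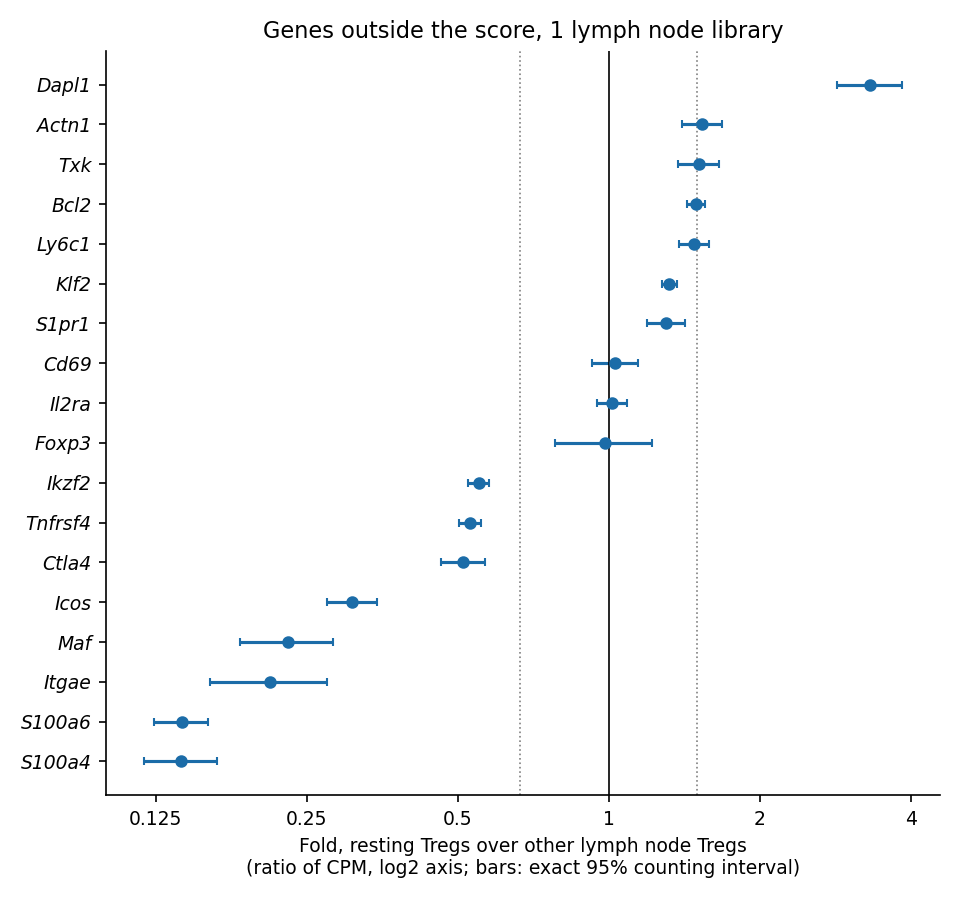
Fold of 18 genes outside the score, as the ratio of CPM in 1396 resting Tregs over 7909 other lymph node cells (horizontal log2 axis; points are ratios of summed counts, bars exact 95% counting intervals, dotted lines the 1.5-fold limits). Dapl1 stands at 3.31, Foxp3 and Il2ra lie at 1 within their intervals, and S100a4 and S100a6 are 7.12-fold and 7.10-fold lower.

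The higher genes were Dapl1, Actn1 and Txk. Dapl1 (chromosome 2, 59484653 to 59505020), known from quiescent T cells, stood at 62.3 CPM (55.1 to 70.1) in resting Tregs and 18.8 CPM (17.2 to 20.5) in the other cells, 3.31-fold higher (2.85 to 3.84). At a common depth of 1500 UMIs per cell, 5.06% of resting Tregs and 1.99% of the other cells had a Dapl1 UMI (8.67% and 3.48% without thinning). It was thus a transcript of a minority of cells in both groups. Actn1, which encodes the actin cross-linker alpha-actinin 1, was 1.54-fold higher (133 CPM in resting Tregs, 86.4 CPM in the other cells), and Txk, a Tec family kinase gene of T cells, was 1.51-fold higher (128 CPM in resting Tregs, 84.9 CPM in the other cells).

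The genes next in order did not reach the 1.5-fold limit. The survival gene Bcl2 stood at 658 CPM in resting Tregs and 441 CPM in the other cells, a ratio of 1.49 (1.43 to 1.56). Rasgrp2, an activator of the adhesion GTPase Rap1, also had a ratio of 1.49. The surface protein gene Ly6c1 had a ratio of 1.48, Ms4a4c 1.47, the PI3K inhibitor gene Pik3ip1 1.45 and Tsc22d3, a glucocorticoid-induced gene, 1.42. Gtf2i, Cdkn2d, Kif21b and Atp1b1 had ratios between 1.43 and 1.46.

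Homing and quiescence genes differed by small amounts in the same direction. Of 32 listed genes 30 were measured, and 27 of these had a ratio above 1, and 3 were counted as higher and none as lower. The median log2 ratio was 0.26, beside −0.08 over all 6892 genes measured. Klf2, a transcription factor gene of quiescent and circulating T cells, stood at 968 CPM in resting Tregs and 732 CPM in the other cells, a ratio of 1.32 (1.28 to 1.37), and S1pr1, the receptor by which T cells leave the node, 1.30 (1.19 to 1.42). The naive T cell factor gene Bach2 had a ratio of 1.52 (1.28 to 1.79) at 39.7 CPM in resting Tregs, under the 50 CPM minimum. The exceptions were Il7r, the interleukin 7 receptor gene, with a ratio of 0.814 (85.6 CPM in resting Tregs, 105 CPM in the other cells), Btla and Tgfbr2.

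As a group, the lymph node cells chosen as resting carried the transcripts that define Tregs. Their pooled Foxp3 level lay within the counting error of that in the other cells, though it varied between clusters, as given further below. Foxp3 had 21.5 CPM (17.3 to 26.2) in resting Tregs and 21.8 CPM (20.1 to 23.6) in the other cells. The interleukin 2 receptor gene Il2ra stood at 216 CPM in resting Tregs and 213 CPM in the other cells, a ratio of 1.01 (0.947 to 1.09). At 1500 UMIs, 3.47% of resting Tregs and 3.37% of the other cells had a Foxp3 UMI (6.45% and 7.31% without thinning). Cd79a, a B cell gene that Tregs should lack, gave 0.289% of resting Tregs and 0.409% of the other cells (0.501% and 0.657% without thinning).

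Other Treg genes were lower in resting Tregs. Of 19 Treg core genes 18 were measured: 6 were counted as lower, none as higher and 12 were not counted, with a median log2 ratio of −0.41. Ikzf2 (chromosome 1, 69531214 to 69687245), which encodes the Treg transcription factor Helios, stood at 438 CPM in resting Tregs and 795 CPM in the other cells, 1.82-fold lower (1.73 to 1.90). Ctla4, the inhibitory receptor through which Tregs act, was 1.95-fold lower (91.3 CPM in resting Tregs, 178 CPM in the other cells). The costimulatory receptor gene Tnfrsf4 was 1.89-fold lower, the activation marker gene Cd83 2.20-fold, the semaphorin receptor gene Nrp1 1.60-fold and Nt5e, which encodes the ectoenzyme CD73, 1.58-fold. Ratios near 1 were found for Lrrc32 (0.992), the TGF-beta docking receptor, Socs2 (1.02), the folate receptor family gene Izumo1r (0.896) and Gpr83 (1.21).

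Per cell, the Treg core list gave a median of 5 UMIs of 1500 in resting Tregs and 7 in the other cells. None of its UMIs was seen in 50 of 1383 thinned resting Tregs (3.62%, 2.70 to 4.74) and in 97 of 7833 thinned other cells (1.24%, 1.01 to 1.51). At full depth 13 resting Tregs and 19 other cells lacked all of its genes. Foxp3, Il2ra, Ikzf2 and Izumo1r were all at 0 in 116 resting Tregs (8.31%) and in 330 other cells (4.17%) at full depth. What kind of cell these were was not tested.

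**Figure D2:**
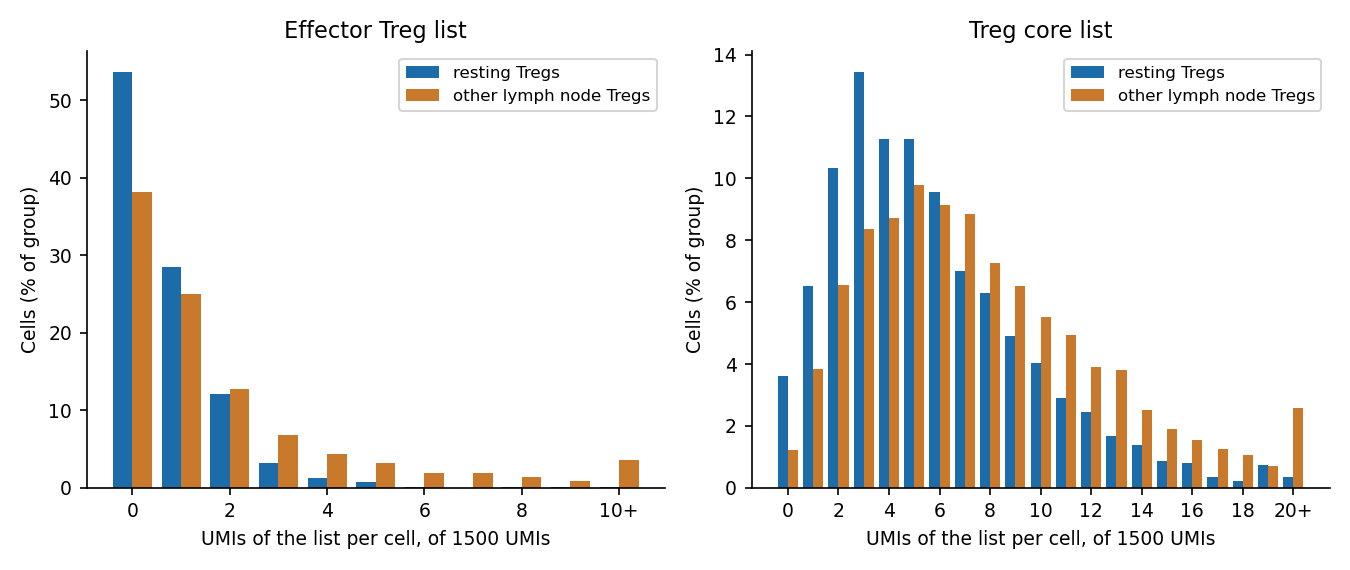
Distribution of UMIs of the effector Treg list (left) and of the Treg core list (right) per cell after thinning to 1500 UMIs, as a percentage of 1383 resting Tregs and of 7833 other lymph node cells. Resting Tregs pile up at 0 effector UMIs (53.7%, against 38.2% of other cells), while both groups spread over the Treg core list with medians of 5 and 7 UMIs.

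Effector Treg genes gave the widest difference of the 18 lists. Of 36 listed genes 24 were measured, all with a ratio below 1 and with a median log2 ratio of −1.71, and the scarcer genes of the list lay below 1 as well. At 50 CPM or more 7 of 8 were counted as lower and none as higher, and Gata3, a factor of type 2 and tissue Tregs, had a ratio of 0.868. The list summed to 481 CPM in resting Tregs and 1343 CPM in the other cells. Itgae, the CD103 integrin chain that binds epithelial E-cadherin, stood at 13.5 CPM in resting Tregs and 63.6 CPM in the other cells, 4.72-fold lower (3.64 to 6.23). The transcription factor gene Maf was 4.36-fold lower, the costimulatory receptor gene Icos 3.24-fold (71.0 CPM in resting Tregs, 230 CPM in the other cells), the tumour necrosis factor receptor genes Tnfrsf1b and Tnfrsf9 2.80-fold and 2.57-fold, Cd44 1.97-fold and Batf 1.79-fold.

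Scarcer effector genes differed by more, on few UMIs. The cytotoxic protease gene Gzmb had 12 UMIs (2.74 CPM) in resting Tregs and 1297 UMIs (45.8 CPM) in the other cells, 16.7-fold lower (9.55 to 32.5). The chemokine receptor gene Ccr2 was 10.6-fold lower, the secreted immunosuppressive factor gene Fgl2 9.30-fold and the effector marker gene Klrg1 7.91-fold. Areg, which encodes the repair factor amphiregulin, had 0 UMIs in resting Tregs and 142 UMIs (5.02 CPM) in the other cells, at least 7.33-fold lower against a floor of 3 counts over the group and at least 5.88-fold by the exact 95% counting limit. Per cell, 79 of 1383 resting Tregs (5.71%) and 1881 of 7833 other cells (24.0%) had 3 or more effector UMIs of 1500. With 10 or more there were 1 resting Treg and 280 other cells.

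Of 18 S100, annexin, galectin and related genes, known from activated and migrating T cells, 16 were measured, and 7 were counted as lower and 0 as higher in resting Tregs. Another 6 reached 50 CPM without being counted, 15 of the 16 had a ratio below 1, and the median log2 ratio was −0.83. S100a4 (chromosome 3, 90603771 to 90606045) stood at 33.5 CPM in resting Tregs and 239 CPM in the other cells, 7.12-fold lower (6.04 to 8.44). Its neighbour S100a6 (chromosome 3, 90612882 to 90624181) stood at 61.1 CPM in resting Tregs and 434 CPM in the other cells, 7.10-fold lower (6.29 to 8.05). Both encode small calcium-binding proteins. S100a11 was 3.04-fold lower, Anxa2, a membrane-binding annexin gene, 2.90-fold, the scaffold gene Ahnak 2.38-fold, the galectin gene Lgals1 1.88-fold and S100a10 1.68-fold.

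The 61 lower genes also held cytotoxic and chemokine transcripts. The chemokine gene Ccl5 was 4.49-fold lower (11.6 CPM in resting Tregs, 52.3 CPM in the other cells), the granule protein gene Nkg7 2.93-fold, the kinase gene Matk 2.90-fold and the glutaredoxin gene Glrx 3.03-fold. The integrin chain gene Itgb1 was 1.97-fold lower, and Bcl2a1b, an activation-induced survival gene with near-identical copies in the mouse genome, 2.17-fold. Of the 61, 25 belonged to the functional lists used here, which were chosen with earlier results of these data known. The share of listed genes among all measured genes is not given here, so this count is a description only. In the glycolysis list 15 genes were measured and 9 reached 50 CPM. Of these 9, 2 were lower, the enzyme gene Tpi1 (1.73-fold) and the hypoxia factor gene Hif1a (1.59-fold).

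Markers of other cell types were scarce. Cd74, the invariant chain of MHC class II, stood at 51.6 CPM in resting Tregs and 196 CPM in the other cells, and was itself among the 61 lower genes. The rest of the dendritic cell list summed to 5.48 CPM in resting Tregs and 24.0 CPM in the other cells, with 6 of 11 genes at 0 in resting Tregs, among them Itgax, Xcr1 and Siglech. The B cell list summed to 25.8 CPM in resting Tregs and 41.7 CPM in the other cells, with Pax5 and Cd22 at 0 in resting Tregs. The plasma cell list (67.3 CPM in resting Tregs, 75.5 CPM in the other cells) was led by Xbp1 at 65.3 CPM in resting Tregs, and the CD8 and NK cell list gave 21.2 CPM in resting Tregs and 23.4 CPM in the other cells. All 9 stroma and endothelium genes were at 0 in resting Tregs, and neutrophil, innate lymphoid and erythroid lists each gave under 10 CPM in both groups. The macrophage list gave 7.76 CPM in resting Tregs and 13.1 CPM in the other cells. Without the few cells with over 3% of UMIs on such markers, 61 genes were again lower and 3 higher.

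Several programmes differed little by their medians, beside −0.08 over all genes measured. Only genes at 50 CPM could be counted, and 2.64% of all 2425 such genes were. A count of 0 in a short list therefore says little. Across the 25 measured genes of the interferon response list the median log2 ratio was −0.03, with 0 of 20 at 50 CPM counted. The level of Ifi27l2a, an abundant interferon-induced gene, was 1743 CPM in resting Tregs and 2152 CPM in the other cells. T cell receptor complex genes had a median of −0.02 with 0 of 15 at 50 CPM counted. Oxidative phosphorylation genes had −0.08 with 0 of 21 counted, and MHC class I genes −0.13 with 0 of 10 counted. Immediate early genes, which handling can induce, had a median of −0.13 with 0 of 9 at 50 CPM counted. Of 21 measured T cell receptor response genes (median −0.32), 12 reached 50 CPM and Tnfrsf4 alone was counted as lower. Cd69, an early activation marker, had a ratio of 1.03 (0.930 to 1.14), whereas the receptor-induced nuclear factor gene Nr4a1 had a ratio of 0.560 at 21.9 CPM in resting Tregs and 39.1 CPM in the other cells, under the 50 CPM minimum.

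Proliferation genes lay below 1 in 18 of 18 measured (median log2 ratio −0.56), though the median ranged from −0.61 to −0.14 over the alternatives and Stmn1, a microtubule regulator gene, stood at 0.16 without cycling cells. The chromatin protein gene Hmgb2 was counted as lower at 1.60-fold. Cycling cells, with at least 3 UMIs of cycling markers, numbered 3 of 1396 resting Tregs (0.215%) and 79 of 7909 other cells (0.999%). Without them 57 genes were lower and 3 higher. Chemokine and S1P receptor genes had a median of −0.85 over 10 measured genes. The receptor genes of tissue entry Ccr2, Ccr4, Ccr6 and Cxcr3 lay below 1, and S1pr1, S1pr4 and Gpr183, which steer T cells within and out of lymphoid organs, above it, though S1pr4 and Gpr183 fell below it under some alternatives. Sterol and fatty acid synthesis genes had a median of −0.16 with none at 50 CPM, Gimap genes 0.12 with 0 of 8 counted, and Bcl2 family genes −0.23 with Bcl2a1b counted as lower.

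Of 12 genes listed for recent thymic emigrants, the youngest T cells, 5 were measured. Of these 4 lay below 1, with a median log2 ratio of −0.32. Ikzf2 and Nrp1 were counted as lower, and Tox, with a ratio of 0.800, was not counted. Ikzf2 and Nrp1 are also among the Treg core genes above, so the list does not speak to the age of the cells. Sox4, an immature T cell factor gene, had a ratio of 1.66 (1.28 to 2.13) at 18.0 CPM in resting Tregs and 10.8 CPM in the other cells. Cytosolic ribosomal protein genes took 38.5% of the UMIs of resting Tregs and 35.8% of those of the other cells, and 78 of 83 had a ratio above 1, with a median fold of 1.07. The mitochondrial share was 2.33% in resting Tregs and 2.36% in the other cells.

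Levels changed by degrees over the classes of the score. With medians of 5 score UMIs in resting Tregs and 2 in the other cells, this cannot tell a range of cells from separate groups. The lymph node cells were divided into 1721 cells with a score of 0, 2930 above 0 and under the 50th percentile, 1861 from there to the 70th, 1397 to the 85th, 930 to the 95th and 466 above it. The last 2 classes are the resting Tregs. S100a6 stood at 851, 529, 194, 112, 70.1 and 42.6 CPM in these classes from low to high score. Icos stood at 459, 249, 132, 90.05, 71.8 and 69.1 CPM. Ikzf2 was lower at each step too, at 1039 CPM at a score of 0 and 346 CPM in the top class. The other cells were therefore a mixture: in S100a6, Icos and Ikzf2 those just under the limit were closer to resting Tregs than to cells without a score UMI.

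In the opposite direction, Dapl1 stood at 12.4, 13.5, 23.2, 32.5, 54.2 and 78.9 CPM from low to high score, Bcl2 at 340 CPM at a score of 0 and 708 CPM in the top class, and Klf2 at 623 CPM and 1034 CPM in those classes. Foxp3 kept between 19.6 and 25.1 CPM and Il2ra between 196 and 220 CPM in all 6 classes, with overlapping intervals at the ends. Within the resting Tregs themselves, the effector list summed to 519 CPM between the 85th and 95th percentile and 440 CPM above it. Median depth in the classes was 2538, 3402, 3181, 3005, 2937 and 2840.5 UMIs, lowest at a score of 0 and, above 0, lower at each step of the score, and its part in these values was not tested.

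**Figure D3:**
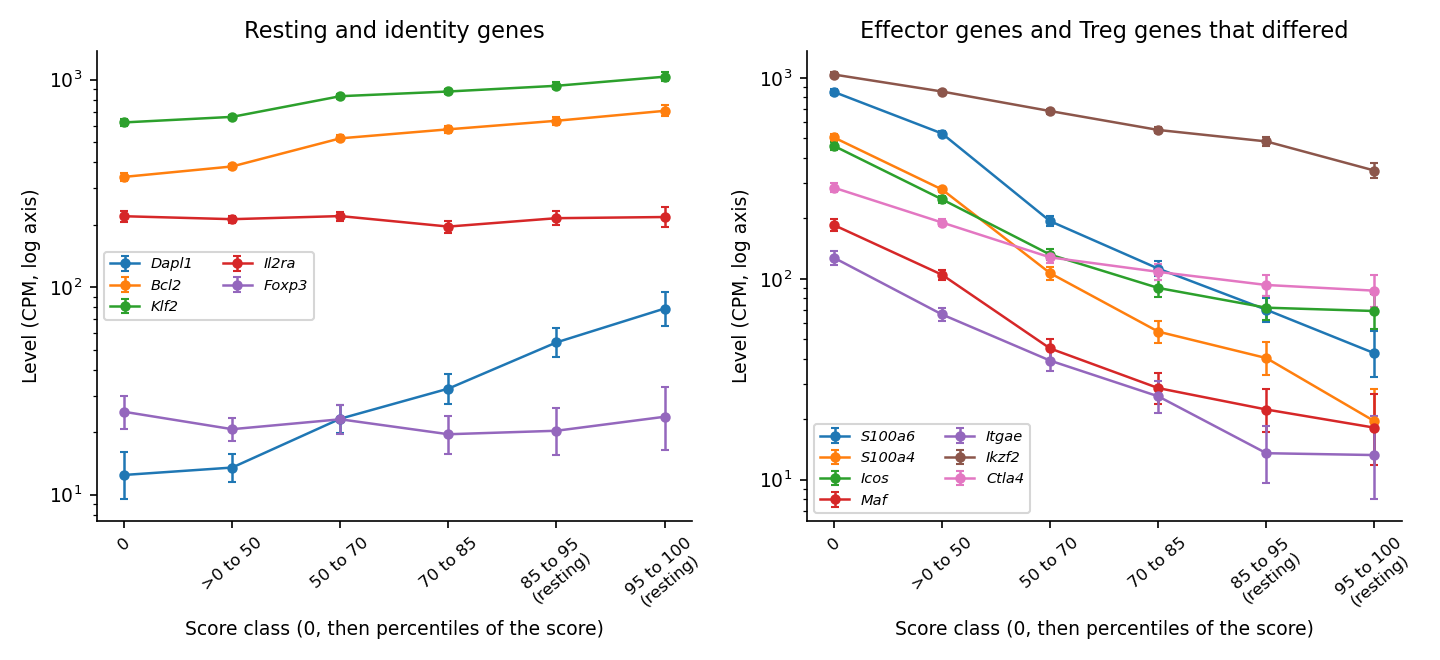
Level (CPM, log axis) of 5 resting and identity genes (left) and of 7 genes lower in resting Tregs (right) in 6 classes of the score, with resting Tregs in the last 2 classes (points are summed counts, bars exact 95% intervals). Dapl1, Bcl2 and Klf2 go up with the score, Foxp3 and Il2ra stay level, and S100a6 ends at 42.6 CPM in the top class, against 851 CPM at a score of 0.

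Each score gene was also left out in turn, and the cells were chosen by the other 4, so that its own level was not fixed by the choice. Igfbp4 was 1.64-fold higher (1.498 to 1.786) in cells high on the other 4 genes than in the rest, at 151 CPM in the high cells and 92.3 CPM in the rest. Satb1 was 1.58-fold higher (1.46 to 1.71) and Ccr7 1.53-fold higher (1.44 to 1.62). Lef1 had a ratio of 1.44 (1.35 to 1.54). Tcf7 was the least tied to the others, with a ratio of 1.11 (1.01 to 1.23). Between 71.4% and 83.2% of the resting Tregs were chosen again by 4 genes. The fold of S100a6 lay between 0.130 and 0.170 in these choices and that of Dapl1 between 1.94 and 3.40, the lowest without Igfbp4.

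The resting Tregs differed among themselves by which score genes they carried. An Igfbp4 UMI was seen in 594 of 1396 resting Tregs. Those with Igfbp4 had less of Satb1 (233 CPM, against 445 CPM in those without) and of Tcf7 (138 CPM, against 257 CPM). All had passed the same limit of the summed score, so a cell with Igfbp4 needed less of the other score genes. These values are therefore partly set by the rule and are no result about the cells. Split by Satb1, the other 4 score genes were lower too, with ratios from 0.606 (Igfbp4) to 0.843 (Tcf7). In cells chosen by the other 4 genes Igfbp4 was higher, as given above. Of 2385 genes at 50 CPM, 5 were higher and 31 lower in resting Tregs with Igfbp4 than in those without (1.51% in either direction). Split by Ccr7, 13 were higher and 21 lower in resting Tregs with it (1.39%), and the splits by Satb1, Lef1 and Tcf7 gave 0.795%, 0.719% and 0.465%. Only 265 resting Tregs lacked Ccr7 and 368 lacked Lef1, and the part of counting error in these counts was not tested. Dapl1 was 2.81-fold higher (2.14 to 3.72), at 92.8 CPM in resting Tregs with Igfbp4 and 33.0 CPM in those without. Split by the other score genes, Dapl1 had ratios between 0.795 and 1.02.

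Helios followed Igfbp4 in the other direction. Ikzf2 stood at 276 CPM in resting Tregs with Igfbp4 and 593 CPM in those without, a ratio of 0.465 (0.421 to 0.512). The glutathione transferase gene Gsta4 had a ratio of 0.416, the migration receptor gene Gpr183 0.508, the NF-kappaB subunit gene Rel 0.541 and Nrp1 0.564. Il2ra (1.01), Foxp3 (0.881) and Bcl2 (1.06) lay near 1, and Socs2, a feedback inhibitor of cytokine signalling, had a ratio of 1.40. Cells with an Igfbp4 UMI were deeper, with a median of 3395.5 UMIs against 2688 in those without, and the part of depth was not tested. Over all 9305 kept cells, where no score limit applied, the 1600 cells with Igfbp4 again had more Dapl1 (3.51-fold) and less Ikzf2 (a ratio of 0.503) than the 7705 without.

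In the splits by Satb1 and Ccr7, other genes differed. The 892 resting Tregs with Satb1 had 1.68-fold more Ly6c1 (1.46 to 1.94) than the 504 without, and less S100a11 (a ratio of 0.575) and Cd74 (0.510). The 1131 resting Tregs with Ccr7 had less Nr4a1 (15.4 CPM, against 54.1 CPM in the 265 without) and less Cd69 (83.4 CPM, against 149 CPM). Over all kept cells, a Tcf7 UMI went with no counted gene in either direction among 2409 measured. In that same setting Igfbp4 went with 1 higher and 45 lower genes, Satb1 with 2 and 38, Ccr7 with 0 and 15 and Lef1 with 0 and 2.

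**Figure D4:**
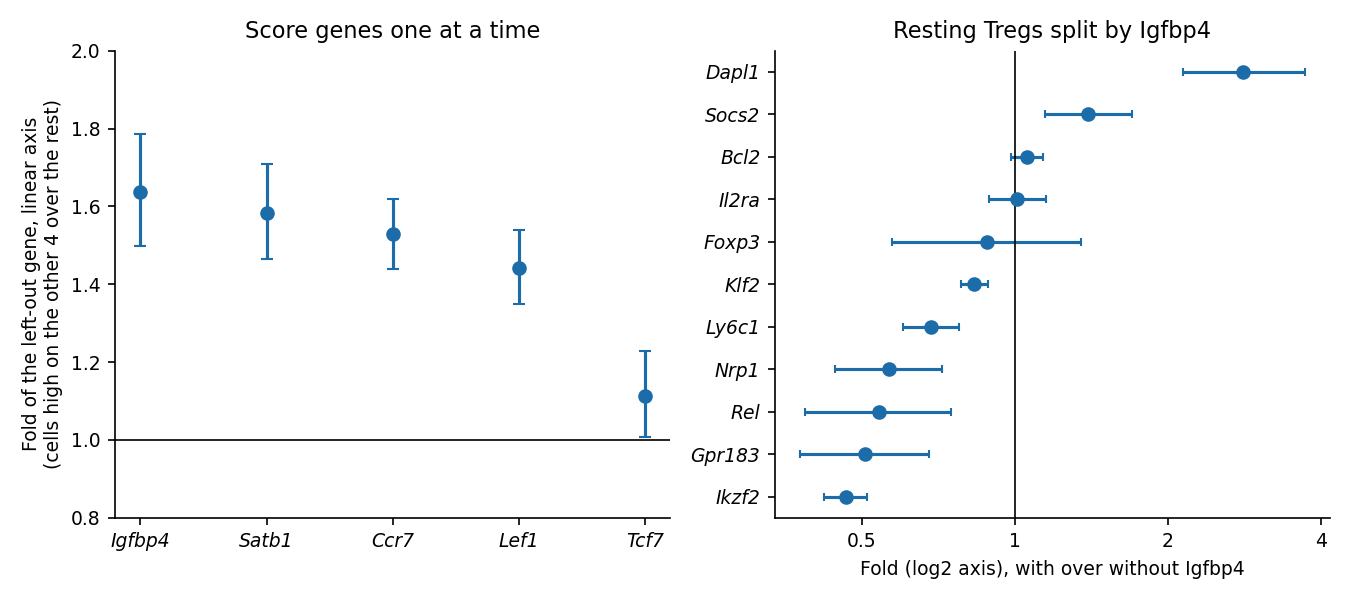
Left, fold of each score gene when left out of the score (cells high on the other 4 genes over the rest, linear axis that starts at 0.8), from 1.64 for Igfbp4 to 1.11 for Tcf7. Right, fold of 11 genes in 594 resting Tregs with an Igfbp4 UMI over 802 without (log2 axis), with Dapl1 at 2.81 and Ikzf2 at 0.465; bars are exact 95% counting intervals.

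Resting Tregs were spread over the library rather than gathered in 1 cluster. Clusters were made from 1500 variable genes without the score genes, and are given by number. Of 13 clusters, cluster 4 had the highest share of resting Tregs (27.8% of 933 cells, 24.9 to 30.8), followed by clusters 3 (22.4%), 0 (20.7%), 6 (20.3%) and 10 (71 of 355 cells). Those 5 clusters held 967 of the 1396. Within clusters 4, 3, 0, 6 and 10, resting Tregs over other cells had effector list medians (log2) of 0.30, −0.04, −0.03, −0.08 and 0.33. Their S100 list medians were −0.02, −0.001, −0.06, 0.11 and −0.10, and their homing list medians lay between 0.07 and 0.13. In the other clusters with resting Tregs, effector medians lay between −1.18 and −0.05, and S100 medians between −1.51 and 0.10. S100a6 had a ratio of 1.34 in cluster 6, 1.16 in cluster 10 and below 1 elsewhere. The share of resting Tregs was 17.3% in cluster 8, whose leading genes were interferon-induced, and 6.54% in cluster 1. It was 3.37% of 89 cells in cluster 11, led by cell cycle genes, and 1.13% of 886 cells in cluster 5, led by Klrg1 and Gzmb. None of the 12 cells of cluster 12, led by B cell genes, was chosen, which allows a share of up to 26.5%.

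The Treg genes of resting Tregs varied between these clusters. Il2ra in resting Tregs stood at 422 CPM in cluster 3 and 99.3 CPM in cluster 4, and Ikzf2 at 492 CPM in cluster 3 and 145 CPM in cluster 4. Socs2, which interleukin 2 signalling induces, stood at 248 CPM in cluster 3 and 14.8 CPM in cluster 4, and Lrrc32 at 206 CPM and 25.2 CPM there. Dapl1 stood highest in clusters 4 (111 CPM) and 0 (87.6 CPM). Izumo1r kept at least 516 CPM in the resting Tregs of each of the 10 clusters with 40 or more of them, and Foxp3 lay between 7.42 and 38.2 CPM on 1 to 19 UMIs a cluster. These genes helped to make the clusters, so their differences are a description. Without clusters 0 and 4, chosen after the data were seen, 76 genes were lower and 6 higher.

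**Figure D5:**
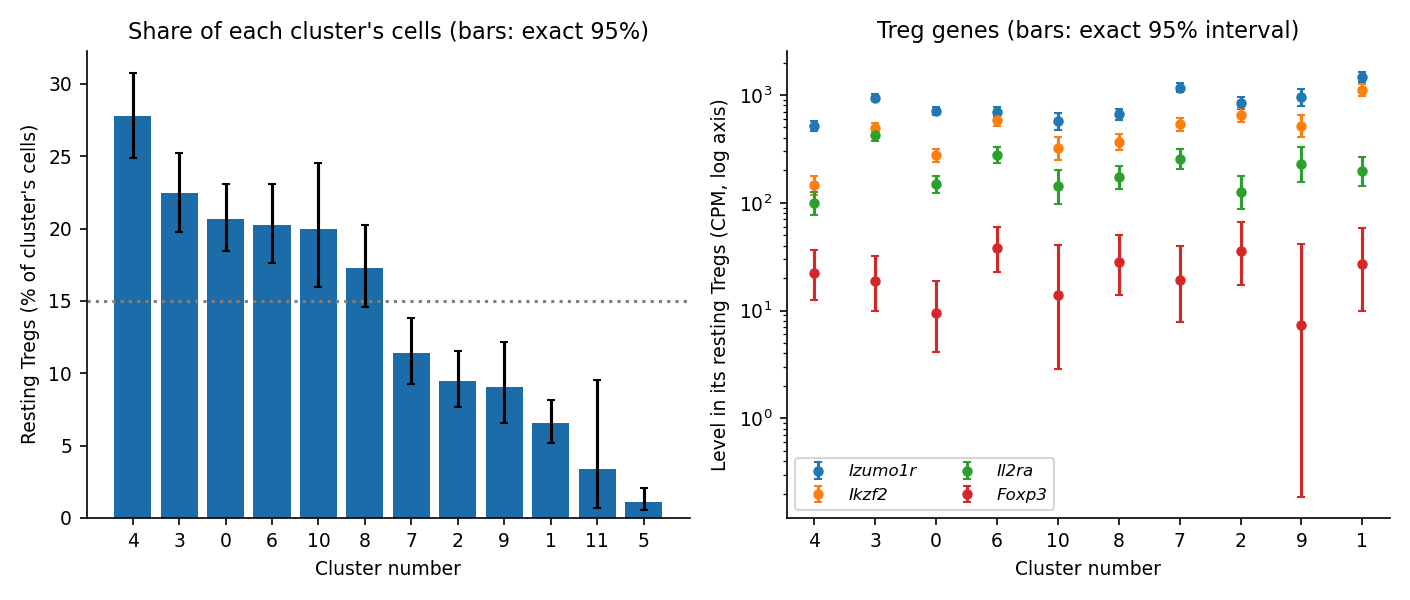
Left, resting Tregs as a percentage of each cluster's cells (bars are exact 95% intervals, the dotted line the library share of 15%; cluster 12, with 12 cells, is not drawn). Right, level (CPM, log axis) of Izumo1r, Ikzf2, Il2ra and Foxp3 in the resting Tregs of the 10 clusters with 40 or more of them; cluster 4 has the highest share and the lowest Ikzf2, Il2ra and Izumo1r.

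The same filters and rule were applied within each skin library, whose cells did not choose the lymph node members. The 85th percentile gave 41 of 271 epidermal cells at a limit of 636 on that scale and 126 of 838 dermal cells at 197. At the lymph node limit there were 20 epidermal cells (7.38%) and 9 dermal cells (1.07%). Skin was run with the v3 kit and lymph node with the v2 kit, so tissue and kit cannot be told apart and levels are compared within a library only.

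In epidermis the pattern of the lymph node resting Tregs was seen again, and more widely. Of the 61 genes lower in lymph node resting Tregs, 58 had a ratio below 1 in the high-score epidermal cells and 52 were counted as lower, beside 35.6% of all 3092 genes there. Of the 3 higher genes, 3 had a ratio above 1, 2 reached 50 CPM and 2 were counted as higher, beside 8.86% of those genes. S100a6 stood at 96.4 CPM in the high-score epidermal cells and 3622 CPM in the other epidermal cells, Itgae at 36.1 CPM in the high-score cells and 549 CPM in the others, and Areg at 15.1 CPM in the high-score cells and 620 CPM in the others. Bcl2 was 7.58-fold higher (5.82 to 9.91) in the high-score epidermal cells. Foxp3 stood at 81.3 CPM in the high-score epidermal cells and 93.7 CPM in the others. The effector list had a median log2 ratio of −2.89, beside −0.34 over all 7686 genes measured in epidermis. Most genes there thus lay below 1, which limits what the 58 of 61 can say.

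In dermis the same rule chose cells with few of these differences. The choice rested mostly on Ccr7: the high-score dermal cells held 305 UMIs of it, 83 of Lef1, 32 of Satb1, 14 of Igfbp4 and 5 of Tcf7. Of the 61 genes, 38 had a ratio below 1 and 0 were counted as lower, beside 1.64% of all 2981 genes there. Of the 3 higher genes 3 had a ratio above 1, but only 1 reached 50 CPM there and 0 were counted as higher, beside 1.85% of those genes. S100a6 stood at 4609 CPM in the high-score dermal cells and 5860 CPM in the other dermal cells, Icos at 1402 CPM in the high-score cells and 1449 CPM in the others, and Areg at 818 CPM in the high-score cells and 750 CPM in the others. Bcl2 had a ratio of 2.94 (1.36 to 6.10), on 13 UMIs in the high-score dermal cells. The effector list had a median log2 ratio of −0.11, beside −0.008 over all 7544 genes measured in dermis. The share of all dermal genes below 1 is not given here, so the 38 of 61 is a description only. A score of 0 was found in 660 of 838 dermal cells. Without the shared barcodes, 54 of the 61 genes were counted as lower in epidermis and 0 in dermis, and the effector medians were −2.99 in epidermis and −0.10 in dermis.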

How the data were processed

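The deposited values were unnormalized UMI counts for each gene in each barcode called as a cell, from the 10x 3′ v2 kit for lymph node and v3 for skin, per the labels' protocols. Per the submitters' processing notes, Cell Ranger and mm10 were used. Per the file headers, version 4.0.0 was run on skin; for lymph node the version is not given in the sources here. All 3 tables had 27998 genes.

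The quality limits removed 19 lymph node barcodes for mitochondrial UMIs and 95 for T cell UMIs, leaving 9305 of 9419. The counts were summed per group and compared as CPM in Python 3.11.15 with pandas 2.3.3 and scipy 1.17.1. Intervals of folds came from the exact binomial split of both counts, those of CPM from the Poisson and those of shares from the Clopper-Pearson method. All intervals and floors cover counting error only. The calculation of ratios was run on Poisson counts simulated from a pooled profile with known changes. Such counts hold no variation between cells or animals, so they check the calculation only. Shares and per-cell values used cells thinned to 1500 UMIs, which left out 13 resting Tregs and 76 other cells. Clusters came from scanpy 1.11.5 (20 principal components, 15 neighbours, Leiden resolution 1). Scrublet marked 0 of 9305 cells and so did not work; doublets were left in. TMM factors came from edgeR 4.0.16 and median-of-ratios factors from DESeq2 1.42.0.

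The cells, lists and rules were chosen with earlier results of these data known. Named genes were the score genes, 12 fixed genes, the 12 highest and 12 lowest ratios at 50 CPM (leaving out mitochondrial, ribosomal protein, predicted, receptor segment, sex-linked, haemoglobin and other-type marker genes) and up to 4 per list. Others named in the text are further members of the lists, or genes from the counts of splits and clusters chosen after their values were seen. Of the listed genes, Rflnb, Trdc, Trgv2, Tcrg-C1 and Ccl19 were not in the gene table. Reads, mapping and barcode calling were not analysed here. A result for 1 of the fixed genes is not reported here.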

Additional observations from a re-analysis of the deposited data

How the results depend on the processing

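No paired analysis was possible because each tissue had 1 library and no test was run. No gene or list median past 1.5-fold turned to the other direction under any alternative, and 169 of 199 summary values kept within their limits. Of 115 results, 15 under that limit changed sign under at least 1 alternative: the dermal effector median (to 0.03), the interferon, oxidative phosphorylation, sterol and T cell receptor list medians, and the log2 ratios of Foxp3, Il2ra, Cd69, Mcl1, Xbp1, Ier5, Gpr183, S1pr4, Kif21b (−0.30 in cells with a Foxp3 UMI) and Stmn1 (0.26 without cells above the 95th percentile of UMIs). The proliferation median was −0.14 with cells thinned before summing, −0.18 without cycling cells and −0.19 without cells above that percentile. The count of genes higher in resting Tregs, 3 in the report, was 5 with a mitochondrial limit of 5%, 7 at the 90th percentile of the score, 6 without Tcf7 in the score, 6 with cells thinned before summing, 1 with the other cells weighted by depth class, 1 without cells above the 95th percentile of UMIs, 16 with TMM scaling, 16 with median-of-ratios scaling, 17 with mitochondrial and ribosomal protein genes left out of the totals and, in an alternative added after seeing the data, 6 without clusters 0 and 4. Higher and lower counts were 835 and 2801 with no CPM minimum (where 13235 genes were tested), 42 and 194 at a looser fold limit and 1 and 20 at 2-fold, and 27 genes were lower at a minimum of 100 CPM. In the 668 cells with a Foxp3 UMI, of which 101 were resting Tregs, 97 genes were higher and 243 lower, on far fewer UMIs. With the score taken on cells thinned to 1500 UMIs, ties at the limit gave 2847 members, 0 genes were higher and 40 lower, the Treg core median was −0.30, the effector median −1.12, the median log2 fold of the left-out score genes 0.42 (0.61 in the main setting) and the epidermal effector median −1.21 (−2.89 in the main setting). The left-out score genes stood at 0.50 with cells thinned before summing and 0.73 in cells with a Foxp3 UMI. The Treg core median was −0.31 without Satb1 in the score and −0.30 in cells with a Foxp3 UMI, and the dermal effector median was −0.42 (−0.11 in the main setting) with at least 2 score genes detected. The cause of these shifts was not tested. Of values of single genes, 319 of 2623 moved past their counting interval. Foxp3 rested on 94 UMIs over all resting Tregs.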
